A study of Rattus norvegicus with 24 samples.

Results

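Maoa, Maob and Aldh2 encode 3 enzymes of monoamine breakdown, and they were followed here in the heart muscle of rats with a leaking mitral valve. They are 3 of the 10129 genes listed in all 4 deposited tables. The members were chosen by name: Maoa was selected on its rise at 40 weeks, which is among the largest in that table, and the other two were taken as its paralogue and the next enzyme of the pathway. The values of MR at 40 weeks against Sham therefore chose Maoa, and for all 3 genes they are given as a description with no test.

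The study measured RNA by sequencing in the myocardium of Sprague-Dawley rats after 1 of 2 operations. In mitral regurgitation (MR), a mitral leaflet was perforated through a left thoracotomy, so that part of each beat leaks back into the atrium; in Sham, the leaflet was left whole. The 24 libraries are Sham at 2 weeks after the operation (n = 5), MR at 2 weeks (n = 4) and MR at 10, 20 and 40 weeks (n = 5 each). Sex, age, heart chamber and batch are not in the labels, nor whether libraries are from separate animals, so a p-value measures the spread between these libraries. Because every Sham library is from 2 weeks, time with MR, age and handling cannot be told apart in a comparison of a later MR group with Sham. The same holds for a comparison of a later with an earlier MR group. Maoa and Maob lie on the X chromosome, and the sex of the rats is not stated.

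Monoamine oxidases sit in the outer mitochondrial membrane with FAD as cofactor. They deaminate noradrenaline, adrenaline, dopamine and serotonin, and each turn releases an aldehyde, ammonia and hydrogen peroxide. The form encoded by Maoa prefers serotonin and noradrenaline, and it is the main form in rat heart muscle cells; the form encoded by Maob prefers phenylethylamine. Aldh2 encodes the aldehyde dehydrogenase of the mitochondrial matrix, which oxidises the aldehydes of amine breakdown, acetaldehyde and lipid peroxidation products such as hydroxynonenal to acids.

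On the rn6 build of the tables, Maoa spans chrX:6554698-6620723 on the minus strand and Maob spans chrX:6430694-6533521 on the plus strand. The 2 genes are neighbours that point towards each other, with 21.2 kb between their ends, so they do not overlap. Aldh2 spans chr12:40466495-40498758 on the plus strand. The region before each oxidase gene is shown because the neighbours had different courses in these libraries. The sequences below are the 250 bases before the gene start, 5′ to 3′ on the gene's own strand, from RefSeq on build GRCr8 (chrX:8681373-8681622, minus strand, for Maoa and chrX:8490155-8490404, plus strand, for Maob). Capitals mark GC boxes, the letters GGGCGG or their reverse complement CCGCCC, to which Sp and Krüppel-like factors are known to bind.
Maoa: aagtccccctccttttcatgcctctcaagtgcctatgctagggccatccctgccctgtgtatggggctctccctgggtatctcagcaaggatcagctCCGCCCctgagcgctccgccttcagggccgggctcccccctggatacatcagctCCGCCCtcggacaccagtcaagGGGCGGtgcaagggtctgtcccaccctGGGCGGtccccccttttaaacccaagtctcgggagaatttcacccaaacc
Maob: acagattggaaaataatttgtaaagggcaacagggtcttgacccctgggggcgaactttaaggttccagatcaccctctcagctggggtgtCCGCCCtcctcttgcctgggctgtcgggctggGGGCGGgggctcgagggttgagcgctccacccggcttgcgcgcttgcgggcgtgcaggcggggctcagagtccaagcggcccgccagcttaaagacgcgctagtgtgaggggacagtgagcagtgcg
RefSeq entries matched 2 of the 3 members, and Aldh2 is named only. The Maoa stretch held 4 GC boxes and the Maob stretch 2, on either strand. Over 33469 rat promoters of the same length, 30.5% held at least 1 GC box and 3.67% held at least 4. G and C made up 62.4% of the Maoa stretch and 63.6% of the Maob stretch, against a median of 51.2%. Neither stretch held the TATA box letters TATAAA, which 12.9% of promoters hold, or the forkhead letters GTAAACA, which 3.21% hold, on either strand. These are matches of letters in a window, not sites shown to be bound.

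Levels are normalised read counts: the reads on a gene divided by 1 factor per library, as the authors deposited them. They are not divided by gene length, so levels of different genes are not ranked against each other. The 24 libraries held 7.69 to 12.1 M reads on listed genes. Maoa was read 199 to 11632 times per library (median 781), Aldh2 942 to 6924 times (median 3896) and Maob 45 to 136 times (median 77), so Maob is the least precisely measured of the 3. A log2 fold change is on the log2(value + 1) scale, which shrinks the change of low genes such as Maob. In these bulk samples, fewer cells of a type and less RNA per cell cannot be told apart. Of the 10 heart muscle cell markers listed for the tissue check, 9 were measured, and their summed level was 39022 to 65576 in every library.

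Maoa levels of MR and Sham overlapped at 2 weeks, and the mean of each later MR group was higher than that of Sham. At 2 weeks the MR libraries stood at 14.4, 26.6, 13.5 and 38.9 normalised read counts, and the Sham libraries in the same table at 36.9, 17.7, 10.5, 44.4 and 30.0. Both groups covered almost the same range. The difference was -0.21 ± 0.40 on the log2 scale (SE; limma adjusted p = 0.929). No gene of 10173 passed an adjusted p of 0.05 in this comparison with limma (0%), while 556 were under 0.05 before adjustment; edgeR called 0 and DESeq2 called 65 on the recovered reads, and none of the 3 members was among those called by either tool.

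At 10 weeks the MR libraries stood at 35.5, 36.1, 92.8, 90.0 and 46.8 for Maoa, a mean of 60.2 ± 28.8 (SD, n = 5) against 26.9 ± 12.99 in Sham (SD, n = 5). Replicates 3 and 4 stood above the other 3, and the lowest MR libraries lay within the Sham range. The difference was 1.16 ± 0.35 on the log2 scale and did not pass (limma adjusted p = 0.216). Maoa was the 13th largest rise of that table, in which 0.168% of genes passed, 17 of 10096.

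At 20 weeks all 5 MR libraries lay above all 5 Sham libraries for Maoa. The MR values were 51.6, 129.9, 56.5, 66.7 and 123.9, a mean of 85.7 ± 38.1 (SD, n = 5), and the Sham mean was 26.1 ± 12.6 (SD, n = 5) with a highest value of 41.5. The difference of 1.72 ± 0.35 on the log2 scale was the 3rd largest rise of the table but did not pass (limma adjusted p = 0.0986). In this comparison 0.0698% of genes passed, 7 of 10025, and 1.80% had groups that did not overlap. DESeq2 on the recovered reads did call the gene (1.74, adjusted p = 0.000241), so the call at 20 weeks depends on the tool.

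At 40 weeks, the contrast that chose the gene, Maoa stood at 512, 165, 97.0, 341 and 160 in MR and at 34.6, 16.8, 10.2, 42.6 and 28.5 in Sham. Every MR library was above every Sham library, and 29.2% of all genes tested at 40 weeks had groups that did not overlap. The MR libraries differed among themselves more than in any other group, with an SD of 170 around a mean of 255 (n = 5), and replicates 1 and 4 held the 2 highest values of all 24 libraries. The log2 fold change was 3.13 ± 0.43 (SE), the largest rise among the 10094 genes of that table, and leaving out any 1 library gave 2.81 to 3.41. This comparison is the broadest of those with Sham, with 47.3% of genes passing, 4772 of 10094, of which 1648 were higher and 3124 lower. After median-ratio rescaling the median gene moved from -0.15 to -0.01 and the split became 2391 higher and 2196 lower.

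**Figure D1:**
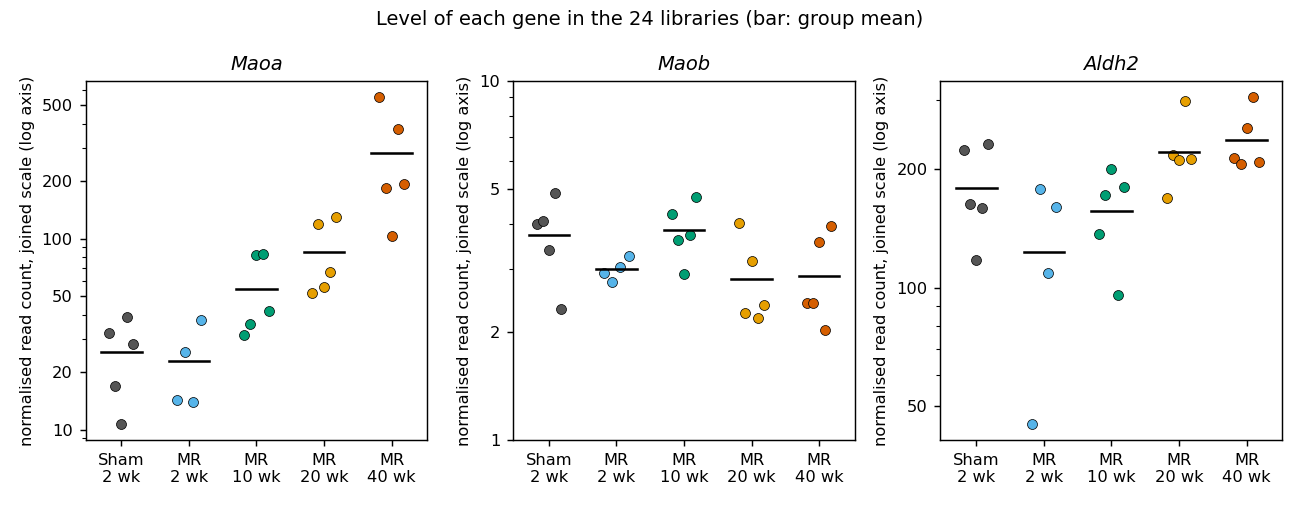
Normalised read counts of Maoa, Maob and Aldh2 in the 24 libraries on the joined scale (vertical log axis), by group along the horizontal axis; each point is a library and each bar a group mean. Maoa means run from 22.9 in MR at 2 weeks to 281 in MR at 40 weeks, Maob means stay between 2.81 and 3.85, and the lowest Aldh2 library is in MR at 2 weeks.

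Maob did not pass in any comparison with Sham that could be tested. At 2 weeks the MR libraries held 2.94, 2.87, 2.94 and 3.36 normalised read counts, and the Sham libraries 4.60, 4.28, 3.32, 5.54 and 2.48. The MR values fell within the Sham range (-0.29 ± 0.19, limma adjusted p = 0.840). At 10 weeks the MR mean was 4.23 ± 0.851 and the Sham mean 3.91 ± 1.09 (SD, n = 5 each; 0.10 ± 0.18, adjusted p = 0.866). At 20 weeks the MR values were 4.003, 2.46, 3.18, 2.19 and 2.27, a mean of 2.82 ± 0.768 against 3.81 ± 1.07 in Sham (-0.32 ± 0.19, adjusted p = 0.657). At 40 weeks, as a description, the MR values were 2.25, 2.15, 3.36, 1.84 and 3.28 against a Sham mean of 3.85 ± 1.12 (-0.43 ± 0.19), and the groups overlapped.

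Aldh2 varied widely within both 2-week groups and did not pass in any comparison with Sham that could be tested. Its MR libraries at 2 weeks stood at 45.4, 186, 106 and 166, a mean of 126 ± 63.5 (SD, n = 4), and the Sham libraries at 258, 171, 116, 181 and 248, a mean of 195 ± 58.7 (SD, n = 5). The lowest value of all libraries was MR replicate 1 at 2 weeks, and the groups overlapped (-0.75 ± 0.37, limma adjusted p = 0.840). At 10 weeks the MR mean was 172 ± 46.5 and the Sham mean 188 ± 54.6 (-0.12 ± 0.23, adjusted p = 0.876). At 20 weeks the MR values were 168, 235, 213, 297 and 203, a mean of 223 ± 47.9 against 183 ± 51.8 (0.31 ± 0.20, adjusted p = 0.699). At 40 weeks the MR values were 199, 184, 240, 278 and 174 and the Sham values 241, 162, 112, 174 and 235 (0.25 ± 0.21, a description). Sham replicates 2 and 3 were the 2 lowest Sham libraries for Maoa, and replicate 3 was also the lowest for Aldh2.

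**Figure D2:**
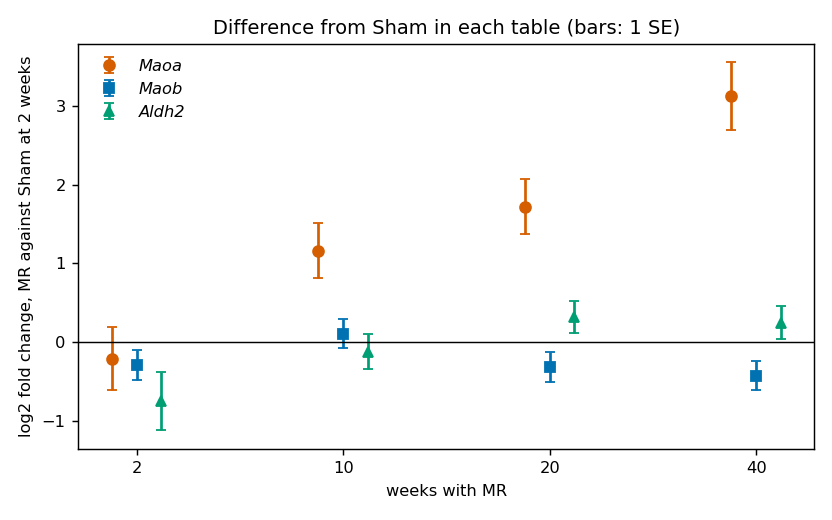
Log2 fold change of MR against Sham at 2 weeks (vertical axis) at each time with MR (horizontal axis, equally spaced), with 1 SE; the values at 40 weeks are those that chose Maoa. Maoa runs from -0.21 to 3.13, while Maob and Aldh2 stay between -0.75 and 0.31. All 4 times share the same Sham libraries.

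The comparisons at 2, 10 and 20 weeks use the same Sham libraries as the contrast that chose Maoa. The differences between MR groups at 2, 10 and 20 weeks are formed from MR libraries alone, without those of 40 weeks, though Sham and MR at 40 weeks enter the scale, the spread and so the adjusted p. They were tested in 1 limma fit of all 24 libraries after median-ratio rescaling, which sets the typical gene to the same level in each library and is here called the joined scale. On that scale the Maoa means were 22.9 ± 11.3 in MR at 2 weeks (SD, n = 4), 25.4 ± 11.5 in Sham, 54.8 ± 25.7 in MR at 10 weeks, 84.9 ± 37.0 at 20 weeks and 281 ± 180 at 40 weeks (SD, n = 5 each). In that order, each pair of neighbouring groups had overlapping libraries.

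Maoa was higher in MR at 20 than at 2 weeks, a contrast in which time with MR, age and handling cannot be told apart. The MR libraries at 20 weeks stood at 51.95, 119.9, 56.1, 66.8 and 129.7 on the joined scale, and those at 2 weeks at 14.2, 25.5, 13.9 and 37.7. Every library of the later group was above every library of the earlier one, and the share of all genes without overlap was not counted for this contrast. The difference was 1.86 ± 0.44 on the log2 scale (limma adjusted p = 0.0113), and it passed under all 20 alternatives run, with values of 1.44 to 2.13 and adjusted p-values up to 0.0453. With the 3 MR groups fitted alone the adjusted p was 0.00733. In this contrast 8.81% of genes passed, 880 of 9983. From 2 to 10 weeks the difference was 1.22 ± 0.44 (adjusted p = 0.164; 1.37% of genes passed), and from 10 to 20 weeks 0.64 ± 0.41 (adjusted p = 0.431; 0.01% passed, 1 gene). As a description, MR at 40 weeks was above MR at 20 weeks by 1.58 ± 0.41 and above MR at 10 weeks by 2.22 ± 0.41.

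Aldh2 was also higher in MR at 20 than at 2 weeks, by a difference that several single libraries decide. Its libraries stood at 168.8, 217.1, 211.2, 297.7 and 212.8 at 20 weeks and at 45.0, 178.7, 109.2 and 160.6 at 2 weeks, so 1 library of the earlier group lay above the lowest of the later one. The difference was 0.99 ± 0.29 (limma adjusted p = 0.0356). Without MR replicate 1 at 2 weeks, the lowest library, it was 0.57 (adjusted p = 0.158). The call was also lost with the 3 MR groups fitted alone (adjusted p = 0.0664), and without replicate 3 at 2 weeks or any of replicates 2 to 5 at 20 weeks (0.57 to 1.001, adjusted p from 0.0504 to 0.158). Maob did not pass (-0.09 ± 0.18, adjusted p = 0.790). The remaining Aldh2 and Maob differences between MR at 2, 10 and 20 weeks did not pass, with adjusted p-values of 0.314 to 0.495.

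Other measures moved between MR at 2 and 20 weeks. The summed level of 35 outer mitochondrial membrane genes was 2070 to 2637 at 2 weeks and 2980 to 3419 at 20 weeks, and the summed level of 9 heart muscle cell markers was 39022 to 52630 and 47571 to 61498. The 7 fibroblast markers summed to 775 to 2583 at 2 weeks and 670 to 814 at 20 weeks, and the 9 macrophage markers to 106 to 153 and 57.0 to 119.5. MR replicate 1 at 2 weeks had the lowest sum of its group for the muscle cell, outer membrane, fibroblast and macrophage lists, and the highest for the smooth muscle (418), mast cell (33.0), adipocyte (700.1) and endothelial (951) lists. Rescaling every library to equal outer membrane or muscle cell gene levels, an alternative chosen after seeing the data, kept the Maoa call; after muscle cell rescaling the Aldh2 difference was 0.62 (adjusted p = 0.0667). The part of these measures in the results was not tested further.

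A ratio of 2 genes within a library does not depend on how that library was scaled. The ratio of Maoa to Maob was 8.03, 4.14, 3.16, 8.01 and 12.1 in the Sham libraries and 4.89, 9.27, 4.59 and 11.6 in MR at 2 weeks. It was 7.35, 9.89, 28.5, 22.2 and 8.76 in MR at 10 weeks and 12.9, 52.9, 17.8, 30.4 and 54.6 at 20 weeks. All MR libraries at 20 weeks were above all Sham libraries, while the 10-week group overlapped Sham. The mean log2 ratio at 20 weeks was 2.19 above Sham, which is the smallest p the two-sided exact permutation test can give for 5 against 5 (p = 0.00794, adjusted p = 0.0714 over 9 ratio comparisons). At 40 weeks the ratios were 228, 76.8, 28.8, 185 and 48.8, a difference of 3.76 given without a test.

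The ratio of Maoa to Aldh2 had a median of 0.121 in Sham (0.0909 to 0.245), 0.189 in MR at 2 weeks, 0.231 at 10 weeks, 0.308 at 20 weeks and 0.924 at 40 weeks. By two-sided exact permutation tests, the mean log2 ratio was 0.54 above Sham at 2 weeks (p = 0.190), 1.32 above at 10 weeks (p = 0.0317, adjusted p = 0.0952) and 1.45 above at 20 weeks (p = 0.0159, adjusted p = 0.0714). None of these passed after adjustment, and the groups at 20 weeks overlapped by 1 Sham library, replicate 4. Without that library the difference in the Maoa to Aldh2 ratio was 1.54 at 10 weeks and 1.68 at 20 weeks and in the Maoa to Maob ratio 2.28 at 20 weeks, each with an adjusted exact permutation p of 0.0476. For each of these differences, 9 of 10 omissions of a single library left it not passing. The highest adjusted exact permutation p was 0.190, 0.143 and 0.143 in that order. The ratio of Maob to Aldh2 differed from Sham by 0.39, 0.26 and -0.74 at 2, 10 and 20 weeks (adjusted exact permutation p-values from 0.186 upwards).

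**Figure D3:**
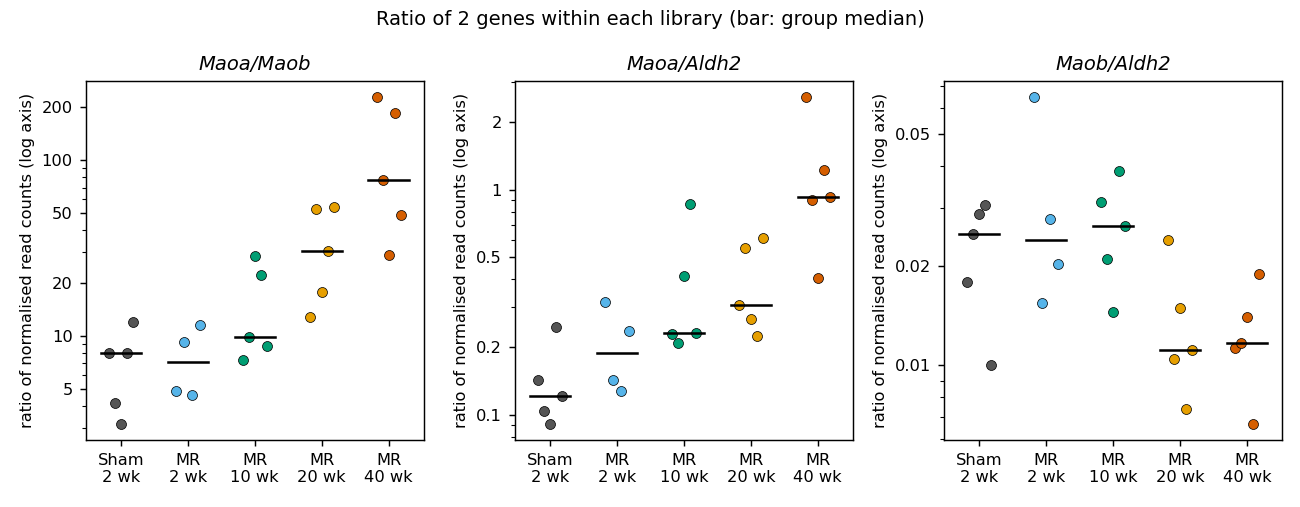
Ratio of normalised read counts within each library for the 3 pairs of genes (vertical log axis), by group along the horizontal axis; points are libraries and bars group medians. The Maoa to Maob ratio has a median of 8.01 in Sham, 30.4 in MR at 20 weeks and 76.8 at 40 weeks.

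The genes whose levels followed each member most closely were ranked by Pearson r of log2(value + 1) over the 24 libraries on the joined scale, among 4925 genes. All points share library scale and group differences, so r is a description. For Maoa they were Rhoq (r = 0.93), Vamp1 (0.92), Xirp2 (0.92), Gpc1 (0.92) and Map1a (0.91). Map1a, a microtubule-associated protein, had a mean of 52.6 in Sham and 210 in MR at 40 weeks, and Xirp2, an actin-binding protein of heart muscle, 148 and 372. Without the MR libraries at 40 weeks, only 1 of these 5 was among the 5 closest, Xirp2 (r = 0.89), and Ankrd1, a stretch-responsive muscle protein, came first (r = 0.93).

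For Aldh2 the closest genes were Acat1 (r = 0.97), Acadm (0.96), Bcat2 (0.95), Akr1cl (0.95) and Idh3g (0.95), and 4 of them stayed among the 5 closest without MR at 40 weeks. Acadm, the medium-chain acyl-CoA dehydrogenase of fatty acid oxidation, had a mean of 272 in MR at 2 weeks and 555 at 20 weeks, and Bcat2, which starts branched-chain amino acid breakdown in mitochondria, 50.45 and 83.3. For Maob they were Heyl (r = 0.70), Triobp (0.69), Adgrl4 (0.67), Dpy19l1 (0.67) and Rarg (0.65), of which 1 stayed without MR at 40 weeks. Adgrl4, an adhesion receptor of the endothelium, had a mean of 31.0 in Sham and 25.1 in MR at 40 weeks. Between the members, r was 0.58 for Maoa and Aldh2, -0.42 for Maoa and Maob, and -0.30 for Maob and Aldh2.

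The rest of the pathway was followed through 161 further genes in 12 lists. At 2 weeks 113 of them could be tested against Sham and 0 passed. Sult1a1, a sulfotransferase of phenols and catecholamines, was the single one that passed at 10 weeks (1 of 113) and again at 20 weeks (1 of 116). Its mean was 39.5 in MR against 11.9 in Sham at 10 weeks (1.62 ± 0.24, limma adjusted p = 0.0192) and 31.2 against 11.5 at 20 weeks (1.37 ± 0.21, adjusted p = 0.0379). At 40 weeks it was 11.5 in MR and 11.6 in Sham (-0.01 ± 0.21, adjusted p = 0.978). Leaving out Sham replicate 4 or 5 or MR replicate 1, 2 or 3 left 0 pathway genes at 10 weeks, and so did leaving out Sham replicate 3, 4 or 5 or any of MR replicates 1 to 4 at 20 weeks.

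Between MR at 2 and 20 weeks, 15 of 115 pathway genes rose and 4 fell, beside 8.81% of all genes called in either direction; the median log2 difference was 0.23 over the lists and -0.01 over all genes tested other than the 3 members. Among 12 aldehyde dehydrogenases, Aldh6a1, of valine breakdown, rose by 1.20 ± 0.38 (limma adjusted p = 0.0460), and Aldh4a1, of proline breakdown, by 0.79 ± 0.24 (0.0390). Aldh18a1, which makes proline precursors, fell by 0.66 ± 0.17 (0.0167). Of 4 other amine oxidases, Smox, the spermine oxidase, fell by 0.86 ± 0.15 (limma adjusted p = 0.00107), from 8.60 ± 1.06 (SD, n = 4) to 4.27 ± 0.269 (SD, n = 5), with no overlap. How many of all genes had no overlap in this contrast was not counted.

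Sult1a1 rose by 1.09 ± 0.27 (limma adjusted p = 0.0150) between those groups. Pnmt, which methylates noradrenaline to adrenaline, had means of 0.944 in Sham and 0.785, 2.03, 2.57 and 0.638 in MR at 2, 10, 20 and 40 weeks. It is counted among the 15, but it reached the filter mean of 1 only through the 2 groups where it is high, so its difference is a description. Slc22a3, a transporter that carries monoamines into cells other than neurons, rose by 0.92 ± 0.28 (0.0394) and Gch1, the first enzyme of the biopterin cofactor used in amine synthesis, fell by 0.80 ± 0.24 (0.0384). All 6 outer mitochondrial membrane genes that passed, of 35, were higher at 20 weeks. Of all 9980 genes tested other than the members, 398 passed as higher and 480 as lower. Smox passed under all 20 alternatives. Aldh4a1 and Slc22a3 passed in 11 of them, Aldh6a1 in 10, Gch1 in 14, Sult1a1 in 18 and Aldh18a1 in 19. Single libraries that ended a call were MR replicates 1 and 3 at 2 weeks and 2 to 5 at 20 weeks for Aldh4a1 (0.60 to 0.86), Slc22a3 (0.58 to 0.93) and Aldh6a1 (0.93 to 1.22, and also replicate 2 at 10 weeks). For Gch1 they were replicates 1, 2 and 3 at 2 weeks and 2, 4 and 5 at 20 weeks (-0.80 to -0.70), and for Aldh18a1 replicate 3 at 2 weeks (-0.63). Without MR replicate 1 or 3 at 2 weeks 5 or 8 pathway genes rose, without replicates 2, 3, 4 or 5 at 20 weeks 6 to 9 rose, and 2 fell without replicate 3 at 2 weeks or 4 at 20 weeks. After rescaling to equal heart muscle gene levels 2 rose and 13 fell.

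**Figure D4:**
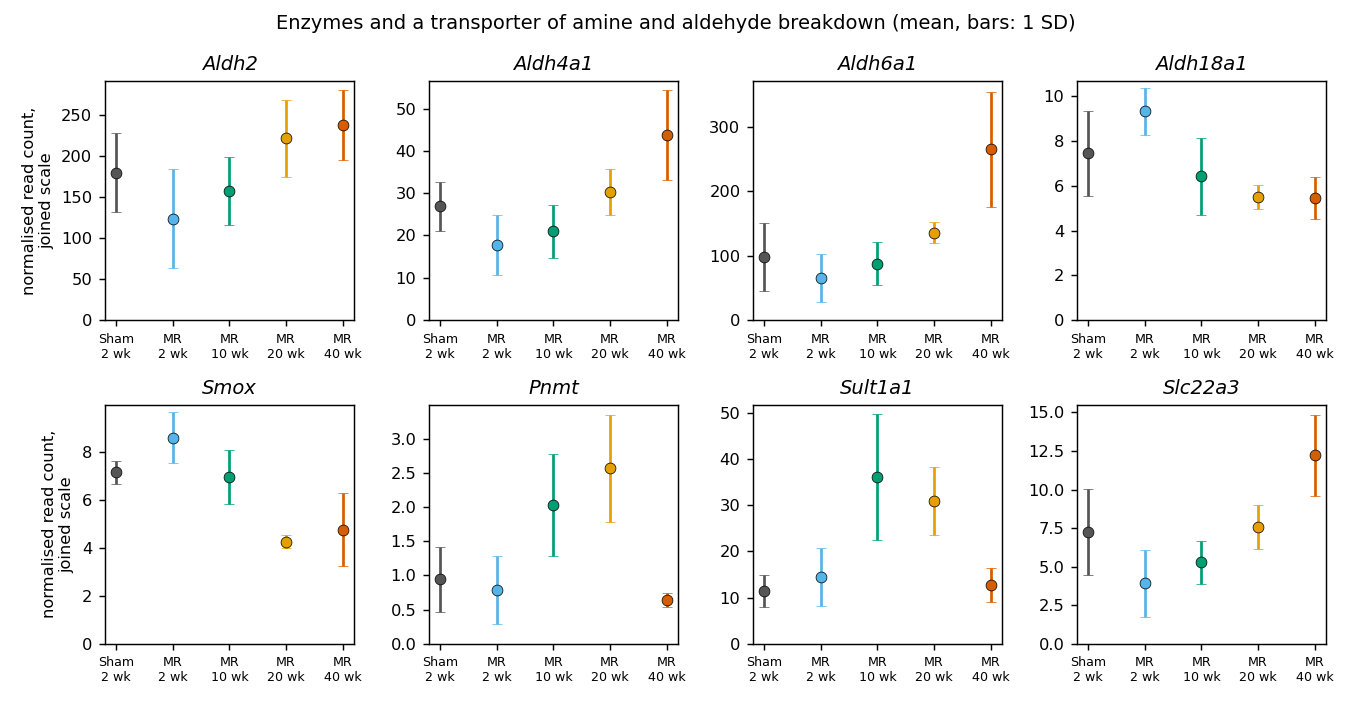
Mean normalised read count on the joined scale with 1 SD (vertical axes, from 0) of Aldh2 and 7 other genes of amine and aldehyde breakdown in Sham and MR groups (horizontal axes). Aldh2, Aldh4a1 and Aldh6a1 have their lowest mean in MR at 2 weeks, Sult1a1 is highest in MR at 10 weeks, and Pnmt in MR at 20 weeks.

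At 40 weeks, 54 of 113 pathway genes passed against Sham, 21 higher and 33 lower, which is 47.8% beside the background of 47.3% of all genes; nothing is read from a share so near to it. After median-ratio rescaling 29 were higher and 21 lower, and where the call of a gene named here depends on the scaling, this is said beside it. Of the aldehyde dehydrogenases, Aldh6a1 (1.39 ± 0.38, limma adjusted p = 0.00858), Aldh9a1 (0.60 ± 0.18) and Aldh4a1 (0.50 ± 0.19) were higher, and Aldh16a1 (-0.51 ± 0.12) was lower. Aldh3a2 was 0.36 ± 0.15 higher (adjusted p = 0.0680) and passed after rescaling (0.51, adjusted p = 0.00760). Aldh18a1 (-0.53 ± 0.16) and Aldh3b1 (-0.51 ± 0.18) were lower as deposited and did not pass after rescaling. Aldh9a1 oxidises aminoaldehydes such as the one from gamma-aminobutyric acid synthesis.

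Among the other amine oxidases, Smox was lower in MR at 40 weeks, at 4.33 against 7.34 in Sham (-0.69 ± 0.17, limma adjusted p = 0.00554). Its groups did not overlap as deposited, and neither did those of 29.2% of all genes in that comparison. On the joined scale the highest Smox library in MR at 40 weeks stood above the lowest in Sham, so the groups overlapped. The remaining amine oxidases tested, Aoc3, Paox and Rnls, did not pass, with log2 differences of 0.14, -0.09 and 0.01. Slc22a3 was 10.95 in MR and 7.54 in Sham (0.56 ± 0.23, adjusted p = 0.0642) and passed after rescaling (0.70, adjusted p = 0.0212). Cyb561, which supplies electrons for amine synthesis in storage vesicles, was lower (-0.67 ± 0.17). Ddc, the decarboxylase that forms dopamine and serotonin, was 17.9 in MR and 16.3 in Sham (0.18 ± 0.22, adjusted p = 0.535). Th, Dbh and Slc6a2, which mark noradrenaline neurons, are not listed in any table.

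Receptors and the surroundings of the enzymes gave calls in both directions at 40 weeks, where 47.3% of all genes passed as deposited. Over all genes, 1648 were higher and 3124 lower as deposited, and 2391 and 2196 after rescaling. Of 7 monoamine receptors, the adrenergic receptors Adra1a (5.93 against 1.001, 1.82 ± 0.26) and Adrb1 (5.91 against 2.00, 1.24 ± 0.25) were higher with no overlap, as 29.2% of all genes had none. The Sham mean of Adra1a was at the filter mean of 1, and at 0.975 on the joined scale, so its rise starts from a barely measured level. Adra2c stood at 6.45 in MR against 0.507 in Sham, and Adra2b at 0.768 against 1.88. These 2 receptors reached the filter mean of 1 only through the group where they are high, so their differences are descriptions. Of 17 genes of peroxide removal, 4 were higher and 8 lower as deposited, and 5 and 4 after rescaling. Prdx6 (0.92 ± 0.26), Txnrd1 (0.57 ± 0.15), Cat (0.60 ± 0.21) and Gsr (0.39 ± 0.14) were higher on both scales and Sod2 (0.41 ± 0.20) only after rescaling; these 5 were named after their values were seen. Prdx4 (-0.95 ± 0.17), Sod1 (-0.71 ± 0.13), Gpx4 (-0.62 ± 0.15) and Txn1 (-0.61 ± 0.16) were lower on both scales. Of 5 genes listed under lipid aldehyde conjugation, Gstp1 (-0.68 ± 0.16), Gsta4 (-0.58 ± 0.19) and Hagh (-0.49 ± 0.14) were lower on both scales. That list also takes in Glo1 and Hagh, which are glyoxalases and not conjugating enzymes. Of 10 reductases, Cbr3 (-0.56 ± 0.17) was lower on both scales and Cbr1 (-0.98 ± 0.36) only as deposited.

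Outer mitochondrial membrane genes, which share the compartment of the oxidases, split into 8 higher and 10 lower of 34, and 11 and 7 after rescaling. Of all genes 47.3% passed as deposited, 1648 higher and 3124 lower, and after rescaling 2391 were higher and 2196 lower. Bcl2l13 (1.56 ± 0.18) and Tomm70 (1.52 ± 0.24) were higher, and Tomm7 (-1.32 ± 0.17) and Rhot2 (-0.58 ± 0.13) were lower. Slc25a32, the mitochondrial carrier linked to FAD supply, was higher (0.47 ± 0.14), and Rfk, the riboflavin kinase, passed only after rescaling (0.39 ± 0.18 as deposited, 0.54 rescaled). Of 6 transcription regulators linked to the oxidase genes in earlier work, Foxo1 (12.3 against 4.80, 1.18 ± 0.17) and Nr3c1, the glucocorticoid receptor (0.46 ± 0.16), were higher. Cdca7l was lower (-0.89 ± 0.15), and Klf11 (-0.33 ± 0.12) was lower as deposited and did not pass after rescaling. The part of these regulators in the Maoa values was not tested. Sp1, a GC box factor named after its value was seen, was 0.23 ± 0.14 as deposited and passed only after rescaling (0.38).

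**Figure D5:**
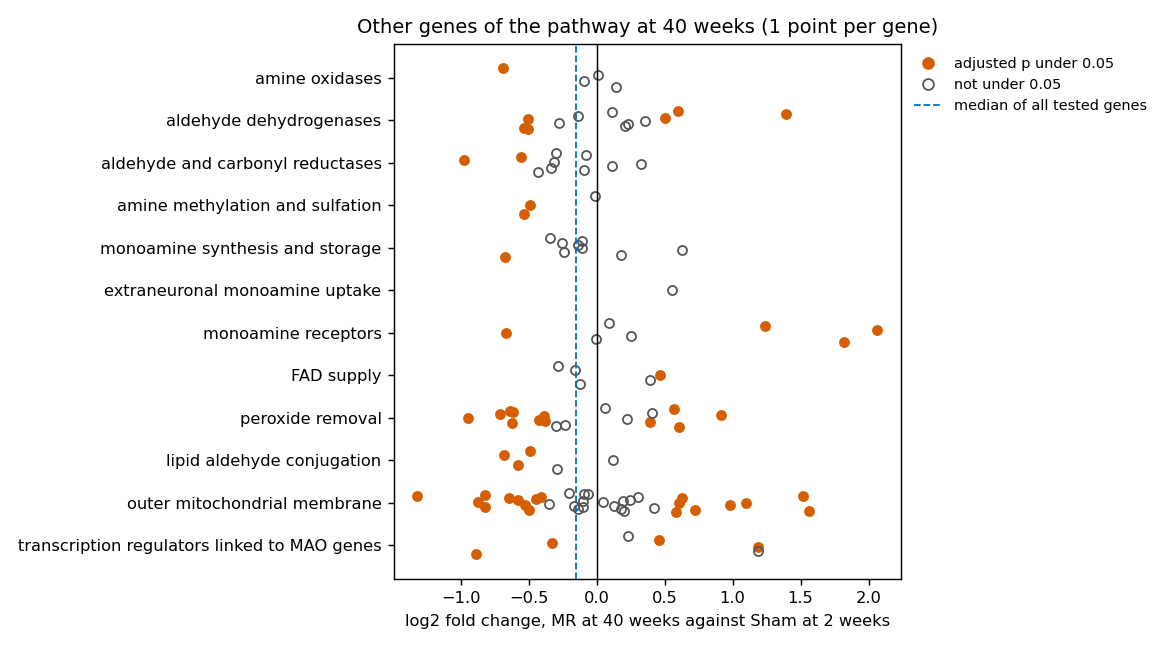
Log2 fold change of MR at 40 weeks against Sham (horizontal axis) for every tested gene of the 12 pathway lists other than the 3 members (vertical axis, 1 row per list); filled points passed an adjusted p of 0.05 and the dashed line is the median of all tested genes at -0.15. Points lie on both sides of the line in most lists, and the 3 highest values are the adrenergic receptors Adra2c and Adra1a and the outer membrane gene Bcl2l13.

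Fold changes at 40 weeks went with the length of the gene in the genome. The median log2 fold change was -0.38 in the shortest of 4 equal groups of tested genes, then -0.20, -0.07 and 0.08 in the longest, and the share called higher was 7.05%, 11.1%, 18.99% and 28.2%. Maoa, spanning 66.0 kb, and Maob, spanning 103 kb, are in the longest group and Aldh2, spanning 32.3 kb, in the third. At 20 weeks the 4 medians were between -0.02 and 0.01. Beside the 47.3% of all genes called, 2 of 9 heart muscle cell markers were higher and 3 lower at 40 weeks, 1 of 9 endothelial markers was higher and 5 lower, and 0 of 9 macrophage markers were higher and 4 lower. After rescaling these counts were 3 and 3, 1 and 3, and 0 and 2. Their part in the Maoa, Maob and Aldh2 values was not tested.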

How the data were processed

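Myocardial RNA was sequenced in 24 libraries. The submitters' processing notes name Partek and build rn6; for the aligner, annotation, counting rule, strand setting and scaling, nothing is given in the sources used here. Signal values (linear normalised gene counts) are what the authors deposited, in 4 tables, 1 per MR time, and all 4 repeat the 5 Sham libraries. These proved to be whole reads divided by a factor per library: 97.4% to 97.5% of a table's values came within 0.1 read of a whole number. A listed gene has reads in every library of its table.

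Groups came from the labels. Each MR time was tested against Sham in its own table with limma 3.58.1 (R 4.3.3, empirical Bayes with a mean trend, two-sided) on log2(value + 1), over genes with a mean of at least 1, with Benjamini-Hochberg adjustment over all genes and a threshold of 0.05. MR times were compared in 1 fit of all 24 libraries and 9983 genes after median-ratio rescaling. Ratios of genes within libraries were compared by exact permutation tests (scipy 1.17.1). The design named edgeR for raw counts. As the values are scaled, limma took its place, and the recovered reads went into DESeq2 1.42.0 and edgeR 4.0.16 as alternatives. The limma fit of MR against Sham ran correctly on counts simulated with a fixed spread before use. The fit of all 24 libraries, the permutation tests, DESeq2 and edgeR were not tried on simulated data.

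The members, gene lists and tests were chosen with earlier results of these data known. Named genes are the members, every measured gene of the oxidase, aldehyde dehydrogenase, methylation and sulfation, synthesis and uptake lists, up to 4 genes of each other list with the smallest p at 40 weeks, and the 5 genes closest to each member by Pearson r; Ankrd1 and the genes marked in the text were named after their values were seen. Replicate numbers follow sample order and pair nothing. Libraries of a group differed beyond counting error in all 46 pairs (chi-square per gene 10.4 to 109), and each was counted as 1 sample. This check cannot show that they are from separate animals. Precision is limited by the spread between libraries more than by depth. Alternatives were other pseudocounts (0.1 and 10), filters (none, and a mean of at least 5), scalings, library weights, other tools and leaving out each library in turn. A result on an item withheld for evaluation is not reported here.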

Additional observations from a re-analysis of the deposited data

Results flagged for a closer look

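A difference between MR groups of different duration passed its own test for 2 of the 3 genes, and both are flagged for that reason; 8.81% of all genes passed in the same contrast, 880 of 9983. The Maoa difference between MR at 20 and at 2 weeks was 1.86 on the log2 scale (limma adjusted p = 0.0113). Its groups did not overlap, and the share of all genes without overlap was not counted. The Aldh2 difference between the same groups was 0.99 (limma adjusted p = 0.0356), and it rests in part on MR replicate 1 at 2 weeks, without which it was 0.57. No library stood apart from its group by Dixon's test in 30 groups of member values and ratios, where chance flags about 1 in 20 groups.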

How the results depend on the processing

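Maoa in MR at 20 against 2 weeks passed under all 20 alternatives, and Maob passed under none of those run. The values followed were those for members, ratios and named pathway genes. With 1 library left out 430 of 472 were counted as unchanged, and under other settings 226 of 242. For tested values, unchanged means the same direction and the same side of the threshold. Values of the comparison that chose Maoa were not tested, so no threshold of p applied to them. For these values, unchanged means a shift from the main value smaller than the larger SD of the MR and Sham groups. All of them met that rule, kept their direction and are included in both counts as unchanged. Maoa at 2 weeks against Sham turned from -0.21 to 0.0221 and 0.0773 when libraries were rescaled by outer mitochondrial membrane or heart muscle genes (adjusted p = 0.983 and 0.935; both chosen after seeing the data). Maoa at 20 weeks against Sham was 1.74 and passed with DESeq2 (adjusted p = 0.000241). Aldh2 in MR at 20 against 2 weeks was 0.99 with the 3 MR groups fitted alone (adjusted p = 0.0664, fewer samples) and 0.617 after heart muscle rescaling (adjusted p = 0.0667), and did not pass in either; the cause of the second was not tested.

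Leaving out each library in turn gave Maob at 10 weeks -0.0188 to 0.202, Aldh2 at 10 weeks -0.284 to 0.0449, and Aldh2 in MR at 20 against 2 weeks 0.570 to 1.23. For the log2 ratios it gave Maoa to Maob -0.104 to 0.380 at 2 weeks and 1.94 to 2.48 at 20 weeks, Maoa to Aldh2 0.975 to 1.54 at 10 weeks and 1.27 to 1.68 at 20 weeks, and Maob to Aldh2 -0.0203 to 0.670 at 2 weeks and -0.00324 to 0.458 at 10 weeks. The sign changes came without Sham replicate 5 (Maob, and Maob to Aldh2 at 10 weeks), MR replicate 4 at 10 weeks (Aldh2), Sham replicates 2 and 3 or MR replicate 4 at 2 weeks (Maoa to Maob) and MR replicate 1 at 2 weeks (Maob to Aldh2). With a mean of at least 5 required, Maob was not tested.

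Counts of all genes called against Sham moved by over 1.5 times in these fits. At 2 weeks, 0 became 27 in 1 fit of all libraries, 22 with library weights and 65 with DESeq2. At 10 weeks, 17 became 5 after median-ratio rescaling and with edgeR, 3 in 1 fit, 27 with weights, 8 after outer membrane rescaling, 85 with DESeq2, and 0 to 29 without a library. At 20 weeks, 7 became 4 with a pseudocount of 10 or muscle gene rescaling, 2 after outer membrane rescaling, 11 in 1 fit, 30 with weights, 93 with DESeq2, and 2 to 14 without a library. The single pathway gene at 20 weeks became 2 with weights, 4 with DESeq2 and 0 after either rescaling by a gene list. At 40 weeks the count stayed within 3648 to 4958 of 4772. In MR at 20 against 2 weeks, 880 became 1714 with weights, 2345 and 2314 after outer membrane and muscle gene rescaling, and 392 to 1194 without a library; the 15 pathway genes higher and 4 lower became 23 and 7, 7 and 12, and 2 and 13 under the first 3 of these. No paired analysis was possible because the replicate numbers only follow sample order. Maob, with 45 to 136 reads per library, is the member whose precision depth limits most.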
